A study of Mus musculus with 8 samples.

Results

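The cystatins Cst3, Cst8, Cst9, Cst11 and Cst12 and the protease cathepsin L (Ctsl) were followed in the testis of mice given di-(2-ethylhexyl) phthalate (DEHP), a plasticiser. They were chosen by symbol, as 6 of the 27670 gene names on the array, and each was measured by 1 probe. Of the 6, 5 passed the filter on dim probes, which kept a probe if one group or the other showed it well above background in 4 or more of its 8 channels. Cst11 did not pass.

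Adult male C57BL/6J mice, 18 weeks old at the start and 21 weeks old when sampled, were gavaged for 21 days with DEHP (200 mg/kg/day, dissolved in corn oil) or with plain corn oil, the vehicle. Each group had 4 mice. RNA came from the right testis, from areas cut out by laser, from single caps of independent mice, and was amplified in 2 rounds. The source labels call these areas rich in Sertoli cells, whereas the text of the extraction protocol speaks of captured Leydig cells. Each DEHP mouse was hybridised with 1 vehicle mouse on 2 arrays with the dyes swapped, giving 8 arrays and 4 pairs: DEHP mouse 1 with vehicle mouse 2, DEHP mouse 2 with vehicle mouse 3, DEHP mouse 3 with vehicle mouse 4 and DEHP mouse 4 with vehicle mouse 1. Pairs are numbered below by the DEHP mouse.

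Cysteine proteases of the cathepsin family digest proteins in lysosomes and, when secreted, outside the cell. Cystatins are small proteins that bind and block such proteases, although some testis and epididymis members lack residues needed for that block. Sertoli cells line the seminiferous tubule, support the germ cells and secrete both proteases and their inhibitors. Cathepsin L is a known secretory product of rat Sertoli cells.

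The captured material carried markers of several testis cell types. Of 28 Sertoli cell markers, 22 passed the filter and 19 were well above background in all 16 channels, but Gata4, Dmrt1, Espn and Gdnf were among those that did not pass. All 17 round spermatid markers and all 15 elongating spermatid markers passed. Of 14 Leydig cell markers, 10 passed, all of them well above background in all 16 channels, while Cyp11a1, Hsd17b3, Hsd3b6 and Lhcgr did not. Of 16 epididymis markers, 6 passed. In such mixed tissue, fewer cells of a type and less RNA per cell cannot be told apart.

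The probes are shown because the cystatins are related genes lying side by side, so what each probe could also match bears on every value below. All are 60 bases long. They come from the deposited array files, in the mm7 coordinates of the array's design, and capitals mark the longest stretch that a probe shares with the probe of any other gene on the array.
Cst3: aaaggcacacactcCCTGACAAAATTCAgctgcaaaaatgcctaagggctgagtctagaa
Cst8: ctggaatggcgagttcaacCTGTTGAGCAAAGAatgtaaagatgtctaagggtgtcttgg
Cst11: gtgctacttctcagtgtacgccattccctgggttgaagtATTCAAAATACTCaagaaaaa
Cst12: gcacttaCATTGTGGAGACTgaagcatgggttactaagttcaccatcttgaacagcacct
The shared stretch was 14 bases for Cst3 and Cst8 and 13 bases for Cst11 and Cst12. It was 13 bases for Cst9 and 12 bases for Ctsl, whose probes are not printed. No probe of the set thus shared more than 14 of its 60 bases in a row with the probe of another gene. Only probes were compared, and probes of related genes can lie in different parts of their transcripts. Matches to the transcripts of other cystatins were not examined, so these lengths do not show what each probe could bind. The GC content was 45% for Cst3, Cst8 and Cst12, 40% for Cst11 and 38.3% for Cst9 and Ctsl.

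The 5 cystatin probes lay within 103 kb of chromosome 2. In order along the chromosome they were Cst11 at chr2:148509586-148509645 on the minus strand, Cst12 at chr2:148534101-148534160 on the plus strand, Cst8 at chr2:148546309-148546368 on the plus strand, Cst9 at chr2:148579465-148579524 on the plus strand and Cst3 at chr2:148612802-148612861 on the minus strand. The Ctsl probe lay apart from them, at chr13:62192273-62192332 on the minus strand. No annotation in this build was used here, so exons and UTRs were not assigned to the probes.

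None of the 5 measured genes differed between DEHP and vehicle beyond the spread between mice. In limma with Benjamini-Hochberg adjustment, 0 of 5 had an adjusted p under 0.05, where 0% of the 22975 tested probes did. Their adjusted p-values ran between 0.907 and 0.992, and the smallest over all probes was 0.902. At an unadjusted p under 0.05, 0 of 5 passed, where 4.59% of all tested probes did (2.3% higher and 2.29% lower in DEHP). All 5 mean log2 ratios of DEHP over vehicle were above 0, as were 48.9% over all tested probes. The median of the 5 was 0.12 against -0.0021 over all tested probes. The 5 probes were bright, at percentiles 88.7 (Cst3) to 98.7 (Cst8) of mean intensity among all tested probes. Probes of like brightness were not set beside them.

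The 95% interval of the fold was widest for Cst8 (0.753 to 1.49) and narrowest in log2 for Cst12 (0.939 to 1.26). The size of the ratios depended on the scaling of the arrays. With each array centred on its median in place of loess, the mean log2 ratio was 0.14 for Cst3, 0.28 for both Cst8 and Ctsl, 0.29 for Cst9 and 0.25 for Cst12, with adjusted p-values in limma of 0.869 to 0.916. The upper end of the interval of the fold was then highest for Ctsl, at 1.67, and the median over all tested probes was 0.011. No such median was taken over probes as bright as these 5, so the shift cannot be called particular to them. With array weights the mean log2 ratio was 0.30 for Ctsl, 0.21 for Cst12, 0.20 for Cst8, 0.15 for Cst9 and 0.089 for Cst3. The ranges of the DEHP and vehicle mice overlapped for all 5 genes, that is 0 were separated, where 1.76% of all tested probes were. No gene of the 5 had a ratio of the same sign in all 4 pairs, where 13.6% of all tested probes did (6.57% higher and 7.08% lower in DEHP).

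**Figure D1:**
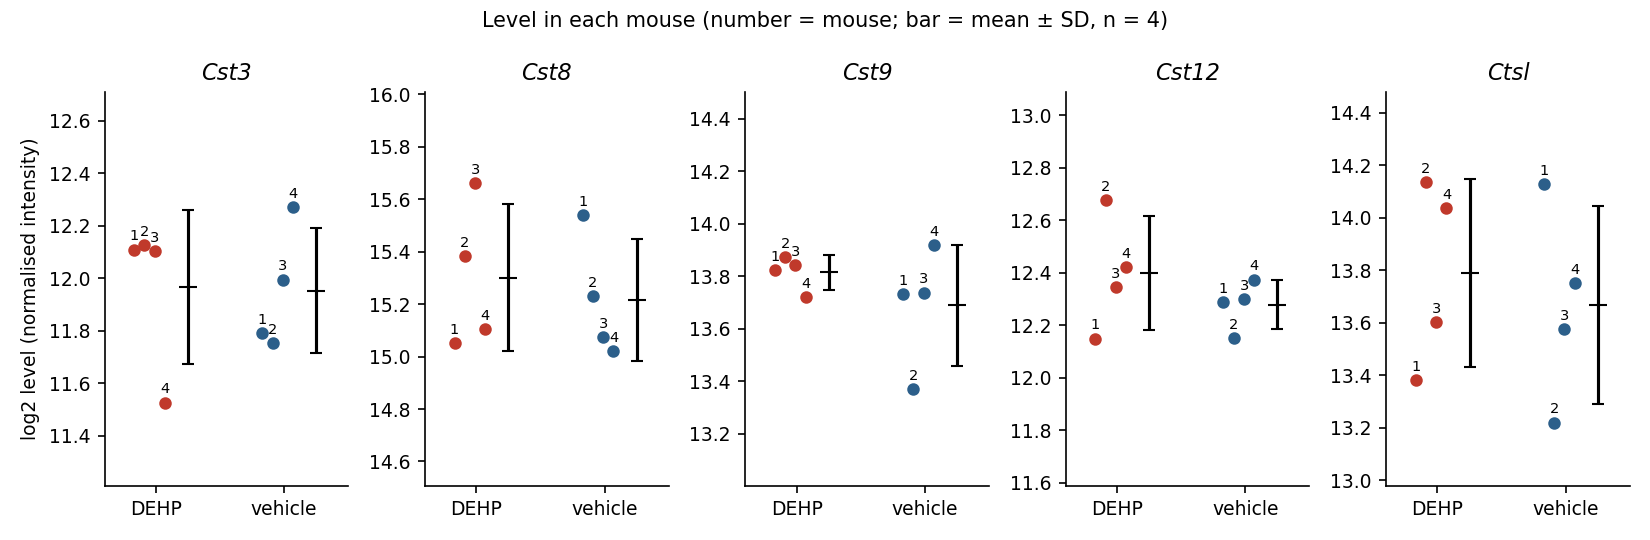
Level of each gene in each mouse, as log2 of the normalised intensity of its probe averaged over the mouse's 2 arrays (vertical axis), for DEHP mice in red and vehicle mice in blue; digits number the mice and bars give the mean ± SD of 4 mice. The groups overlap in every panel, and DEHP mouse 4 lies at 11.53 for Cst3, below the 12.10 to 12.13 of the other DEHP mice.

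Cathepsin L, the protease of the set, varied widely in both groups. Its log2 level was 13.38, 14.14, 13.60 and 14.04 in DEHP mice 1 to 4, against 14.13, 13.22, 13.58 and 13.75 in vehicle mice 1 to 4. Low and high mice were found in both groups, which overlapped over most of their range. The mean was 13.79 ± 0.36 in DEHP mice and 13.67 ± 0.38 in vehicle mice (SD, n = 4 each). Pair by pair the log2 ratio was 0.16, 0.56, -0.15 and -0.090, so the sign changed between pairs. The mean ratio was 0.12 ± 0.32 (SD over 4 pairs, SE 0.132), a 1.09-fold level with an interval of 0.860 to 1.38, and limma gave an adjusted p of 0.926.

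The median of the Leydig cell markers was highest and lowest in the same pairs as the Ctsl ratio. The median log2 ratio of the 10 Leydig markers tested was -0.023, 0.20, -0.51 and -0.085 in pairs 1 to 4, so pair 2 was highest and pair 3 lowest. Insl3, the peptide hormone of Leydig cells, had -0.98, 2.23, -1.49 and -0.25. Star, Hsd3b1 and Ptgds were, like Insl3, highest in pair 2 and lowest in pair 3, but the other Leydig markers tested were not. Igf1, for example, was highest in pair 3, at 0.63. The mean log2 level of the Leydig markers ranged between 9.40 and 9.93 in DEHP mice and between 9.43 and 9.97 in vehicle mice, so neither group held more of it throughout. The part of these cells in the Ctsl ratios was not tested. The pair medians of the 22 Sertoli cell markers lay between 0.0003 and 0.084, with mean levels of 9.33 to 9.43 in DEHP mice and 9.24 to 9.43 in vehicle mice. Clu, Cldn11 and Inhbb among them were also highest in pair 2 and lowest in pair 3, while others of the 22, such as Sox9, were not. The Sertoli list was drawn up with earlier results of these data known, so counts over it are no test of these cells. Of its 22 tested markers, 0 were lower in DEHP mice at an unadjusted p under 0.05 in limma, where 2.29% of all tested probes were. At that p 4 were higher, where 2.3% of all tested probes were. They were Etd, Dhh, the gene of a Sertoli cell signal to Leydig cells, and the defensin genes Defb19 and Defb36, named after their values were seen, with mean log2 ratios of 0.36, 0.26, 0.26 and 0.23 and an adjusted p of 0.902 each in limma. The mice of the groups did not overlap for 1 of the 22, Etd, where 1.76% of all tested probes were separated in this way.

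Cystatin C (Cst3), the widely expressed secreted inhibitor of cathepsins, had the smallest mean ratio of the 5. Its log2 level was 12.11, 12.13, 12.10 and 11.53 in DEHP mice, against 11.79, 11.75, 11.99 and 12.27 in vehicle mice. DEHP mice 1 to 3 were almost equal and above 3 of the 4 vehicle mice, while DEHP mouse 4 was the lowest of all 8. The mean was 11.97 ± 0.29 in DEHP mice and 11.95 ± 0.24 in vehicle mice (SD, n = 4 each). The log2 ratio was 0.36, 0.13, -0.17 and -0.26 in pairs 1 to 4, with a mean of 0.014 ± 0.28 (SD over 4 pairs, SE 0.117). That is a 1.01-fold level with an interval of 0.820 to 1.24, and limma's adjusted p was 0.992. The pair medians of the 17 round spermatid markers had the same 4 signs, at 0.067, 0.14, -0.14 and -0.34, with mean levels of 12.37 to 12.54 in DEHP mice and 12.38 to 12.77 in vehicle mice. The levels per mouse did not run alike, since DEHP mouse 4, lowest for Cst3, had 12.51 for these markers, above DEHP mice 1 and 3. The same 4 signs were not particular to spermatid markers. They were also those of Ctsl, Cst9, some Sertoli markers (Sox9, Rhox5 and Fshr) and the pair medians of the 16 tested cathepsins and relatives. For Ctsl and Cst9 the swapped arrays of pair 4 had opposite signs, so only their mean gave that sign. The part of round spermatids in the Cst3 ratios was not tested.

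Testatin (Cst9), a cystatin-related protein known from the cells that become Sertoli cells in the fetal mouse testis, was nearly constant in DEHP mice. Its log2 level was 13.82, 13.87, 13.84 and 13.72 there, against 13.73, 13.37, 13.74 and 13.92 in vehicle mice. Vehicle mouse 2 was the lowest of the 8 and vehicle mouse 4 the highest, so the DEHP values lay inside the vehicle range. The mean was 13.81 ± 0.066 in DEHP mice and 13.69 ± 0.23 in vehicle mice (SD, n = 4 each); the spreads were not tested against each other. The log2 ratio was 0.45, 0.14, -0.076 and -0.012 in pairs 1 to 4. The ratio was largest in pair 1, which holds vehicle mouse 2. The mean ratio was 0.13 ± 0.24 (SD over 4 pairs, SE 0.0995), a 1.09-fold level with an interval of 0.913 to 1.30 and an adjusted p of 0.908 in limma.

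Cst12, which the array files describe as a cystatin TE-1 homologue, had the smallest spread of ratios over the pairs of the 5. Its log2 level was 12.15, 12.68, 12.35 and 12.42 in DEHP mice, against 12.29, 12.15, 12.30 and 12.37 in vehicle mice. DEHP mouse 1 was the lowest of the 8 and DEHP mouse 2 the highest, with the vehicle mice between them. The mean was 12.40 ± 0.22 in DEHP mice and 12.28 ± 0.093 in vehicle mice (SD, n = 4 each). The log2 ratio was -0.0029, 0.38, -0.028 and 0.13 in pairs 1 to 4, so pair 2 carried most of the mean of 0.12 ± 0.19 (SD over 4 pairs, SE 0.082). Without pair 2 the mean was 0.034. The fold was 1.09 with an interval of 0.939 to 1.26, and limma's adjusted p was 0.907.

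Cst8, known as CRES and as a cystatin of spermatids and the proximal epididymis that lacks sites for blocking cathepsins, had the widest spread of ratios over the pairs of the 5. Its log2 level was 15.05, 15.38, 15.66 and 15.11 in DEHP mice, against 15.54, 15.23, 15.07 and 15.02 in vehicle mice. DEHP mouse 3 was the highest of the 8 and vehicle mouse 4, its partner on the arrays, the lowest. The mean was 15.30 ± 0.28 in DEHP mice and 15.22 ± 0.23 in vehicle mice (SD, n = 4 each). The log2 ratio was -0.18, 0.31, 0.64 and -0.43 in pairs 1 to 4, with 2 pairs on each side of 0. Its mean of 0.085 ± 0.48 (SD over 4 pairs, SE 0.191) corresponded to a 1.06-fold level, with an adjusted p of 0.965 in limma. The SD of Cst8 over pairs lay at percentile 96.8 of all tested probes, against percentile 59.99 for Cst12, 71.9 for Cst9, 80.8 for Cst3 and 86.2 for Ctsl.

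Cst11, known from the human epididymis, gave no usable signal. Its probe was well above background in 0 of 8 DEHP channels and 0 of 8 vehicle channels, and its intensity over local background ranged between 3.07 and 11.3 in DEHP channels and between 5.87 and 19.6 in vehicle channels. No fold is given, since neither group was well above background. The other 5 probes were well above background in all 8 DEHP and all 8 vehicle channels, and no spot of the 6 was saturated or marked as an outlier.

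**Figure D2:**
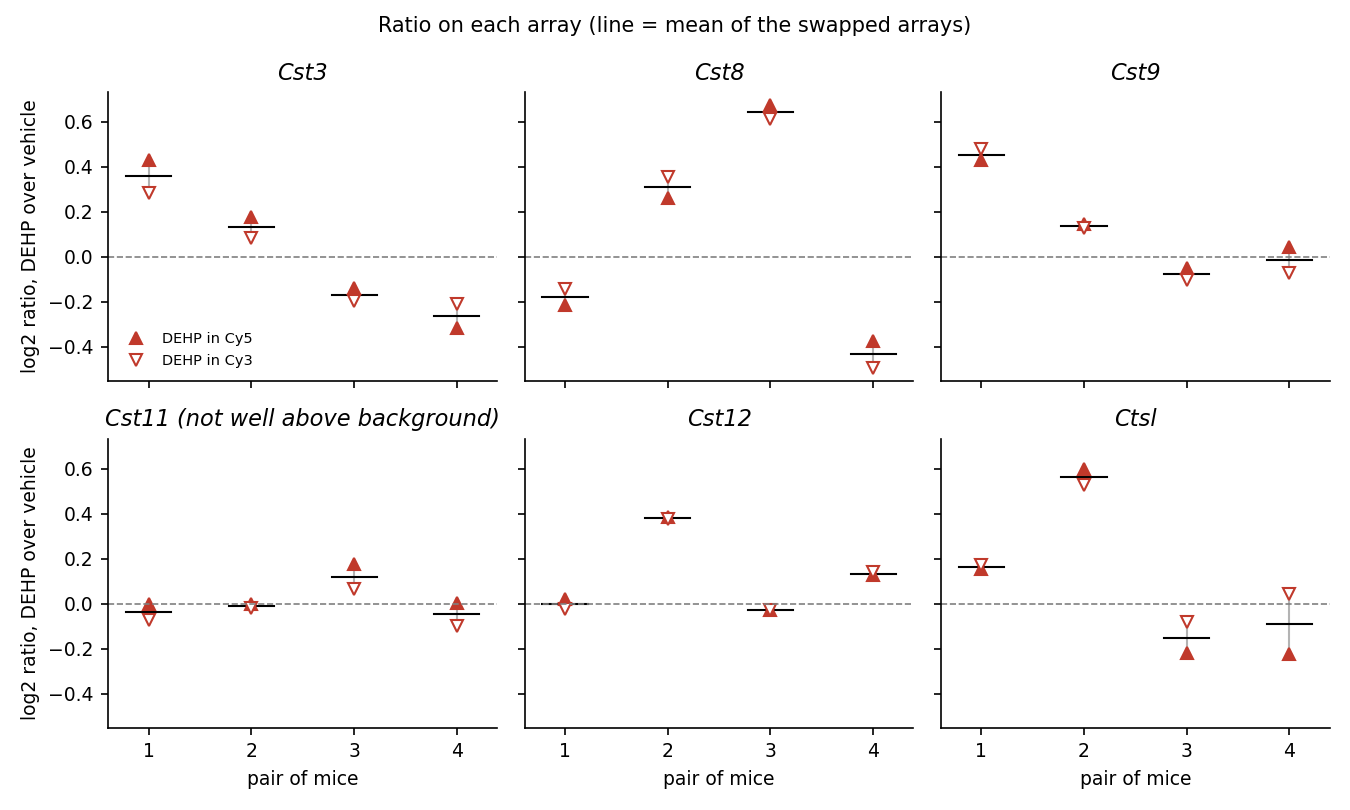
Log2 ratio of DEHP over vehicle on each array (vertical axis) by pair of mice (horizontal axis), with filled triangles for DEHP in Cy5, open triangles for DEHP in Cy3 and a line at their mean. The triangles of a pair lie close together while pairs lie far apart, as for Cst8, whose pair means run between -0.43 and 0.64; Cst11 is drawn for completeness and was not well above background.

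The swapped arrays show that the differences between pairs were measured repeatably. For Cst8 the 2 arrays of a pair differed by 0.0809 in the median pair and by at most 0.118 on the log2 scale, whereas the pair means covered a range of 1.08. For Cst12 the median gap was 0.0116 against a range of 0.41, for Cst9 it was 0.0504 against 0.53, for Cst3 0.0993 against 0.62 and for Ctsl 0.104 against 0.71. The largest gap of any pair was that of Ctsl, 0.266, in pair 4. The swapped arrays had the same sign in all 4 pairs for Cst3 and Cst8 and in 3 of 4 pairs for Cst9, Cst12 and Ctsl. The spread that decides the tests above was therefore larger than the disagreement between arrays of the same RNA. Set against that disagreement alone, in a limma fit with a fixed block per pair and a dye term that leaves out the spread between mice, 4 of 5 genes (all but Cst3) had an adjusted p under 0.05, where 44.7% of all tested probes did. The swap repeats labelling and hybridisation only, so it does not separate differences between the mice from those of capture and amplification.

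Every array with DEHP in Cy5 lay on one slide and every array with DEHP in Cy3 on the other, so slide and dye orientation cannot be told apart. Within the slide with DEHP in Cy5 the mean log2 ratio was 0.038 for Cst3, 0.087 for Cst8, 0.14 for Cst9, 0.13 for Cst12 and 0.077 for Ctsl. Within the slide with DEHP in Cy3 it was -0.0092 for Cst3, 0.082 for Cst8, 0.11 for both Cst9 and Cst12 and 0.16 for Ctsl. Only Cst3 had opposite signs on the slides, and its values lay close to 0 on both.

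The genes of the set did not vary together as one group. Of the 5 measured genes, 3 were above 0 in pair 1, 5 in pair 2, 1 in pair 3 and 1 in pair 4. The pair means of Cst3, Cst9 and Ctsl had the same sign as each other in all 4 pairs. In pair 4, however, the swapped arrays had opposite signs for Cst9 (0.045 with DEHP in Cy5, -0.070 with DEHP in Cy3). They did so too for Ctsl (-0.22 with DEHP in Cy5, 0.043 with DEHP in Cy3). Over the log2 levels of the 8 mice, which share arrays in pairs, Pearson's r was 0.76 between Cst12 and Ctsl, 0.65 between Cst3 and Cst9 and 0.52 between Cst9 and Cst12. It was -0.16 between Cst3 and Ctsl, although their pair ratios had the same signs, and -0.020 between Cst3 and Cst8. These correlations describe 8 mice and carry no test.

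The named genes most like each gene over the 8 mice were also looked up among the 22975 tested probes. Probes with only a clone-like or accession name were left out, and no shared function or control is implied. Ctsl was most like Cenpk (r = 0.987), which encodes a kinetochore protein, and Cacybp (r = 0.962), which encodes a calcyclin-binding protein. Cst3 was most like Fam3c (r = 0.985), which encodes a secreted factor, and Ermard (r = 0.972). Cst8 was most like Sfn (r = 0.968), which encodes the protein 14-3-3 sigma, and Plac9a (r = 0.947). For Cst12 the nearest were Slc25a5 (r = 0.958), the gene of an ADP/ATP carrier of mitochondria, and Rbm3 (r = 0.920), the gene of a cold-inducible RNA-binding protein. For Cst9 they were Vmn2r89 (r = 0.952), a vomeronasal receptor gene, and Dct (r = 0.945), the gene of dopachrome tautomerase. Each r is the highest or next highest found among the tested probes of such named genes and is given as a description. Probes left out for their names may have had a higher r.

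The stretch between the probes of Cstl1 and Cst3 was taken as the cluster, and cystatin probes beyond it were not looked for. This window of 117 kb of chromosome 2 held 9 probes, all of cystatins, of which 8 passed the filter. Those outside the set were Cstl1, Cst13, known as cystatin T of mouse germ cells, and the cystatin-domain genes Cstdc1 and Cstdc2, named 8030411F24Rik and 9230104L09Rik in the files. In this window 7 of 8 mean ratios were above 0 and the median was 0.12. Over all tested probes 48.9% were above 0 and the median was -0.0021. The 8 include Cst3, Cst8, Cst9 and Cst12, already counted above. None of the 8 had an unadjusted p under 0.05 in limma, where 4.59% of all tested probes did. None had the same sign in all 4 pairs, where 13.6% of all tested probes did. Cstdc1 had the highest mean log2 ratio, 0.22 ± 0.26, and Cstdc2 the only one below 0, -0.27 ± 0.29 (SD over 4 pairs), each with an adjusted p of 0.902 in limma. All 8 were above 0 in pair 2, against 3 in pair 1, 4 in pair 3 and 3 in pair 4.

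The genes of the window, neighbours or not, did not vary alike as a rule. Over 8 mice the levels of Cst8 and Cst13, which lie next to each other, had an r of 0.82. Their pair ratios ran in parallel except in pair 1, with 0.091, 0.51, 0.68 and -0.45 for Cst13 beside -0.18, 0.31, 0.64 and -0.43 for Cst8. Across the 28 pairs of genes in the window, r ran between -0.64, for Cstl1 with Cst9, and 0.82, with a median of 0.011. Cstl1 averaged 0.14 ± 0.33 and Cst13 0.21 ± 0.50 (SD over 4 pairs).

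**Figure D3:**
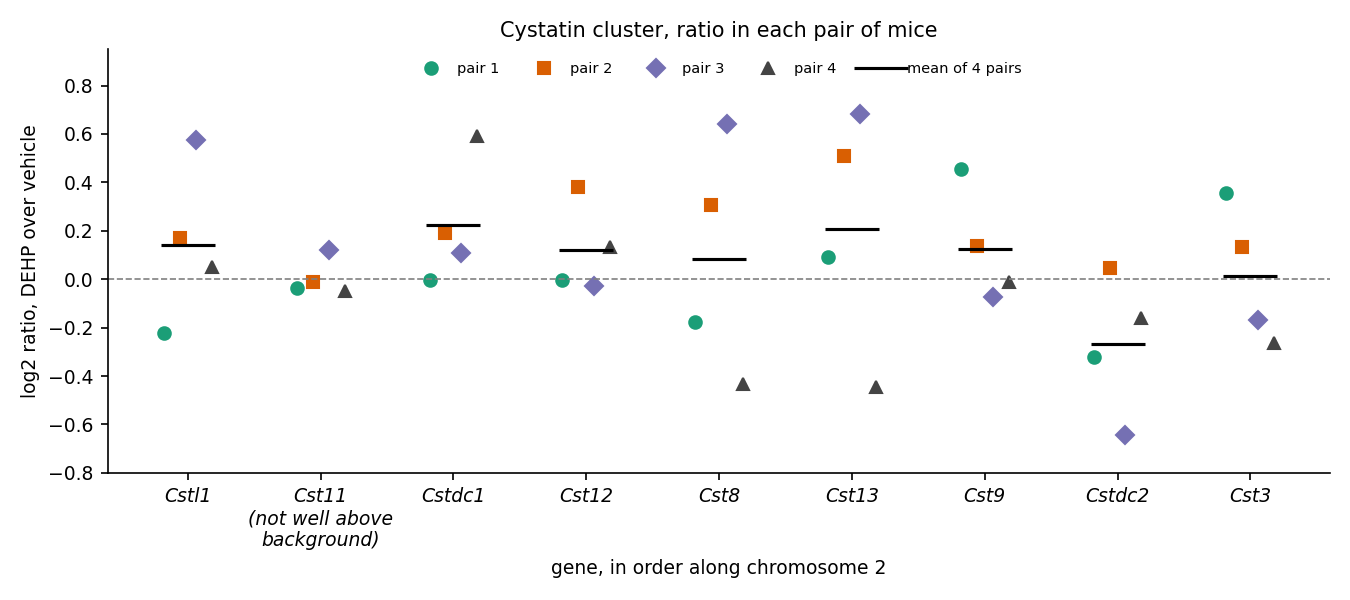
Log2 ratio of DEHP over vehicle (vertical axis) for the cystatin probes between Cstl1 and Cst3 on chromosome 2. They are in their order along the chromosome (horizontal axis), with 1 symbol per pair of mice and a line at the mean of 4 pairs. Only pair 2, the orange squares, is above 0 for all 8 measured genes, and pair 3, the violet diamonds, spans 0.68 for Cst13 and -0.64 for Cstdc2.

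In the wider cystatin superfamily no gene had an adjusted p under 0.05 in limma either, where 0% of all tested probes did. Of all tested probes, 4.59% had an unadjusted p under 0.05 in limma and 48.9% a mean ratio above 0. Of 27 listed genes, 24 were on the array and 14 were tested, with 9 mean ratios above 0, a median of 0.059, and 0 with an unadjusted p under 0.05 in either direction. The median was 0.016 without pair 3, 0.022 without pair 2 and 0.11 without pair 4, and 0.12 with median centring. Those not tested on the array were Camp, Cst6, Cst10, Cst11, Csta1, Kng1, Kng2, Ngp, Stfa2l1 and Stfa3, whose probes did not pass the filter. Stefins block cathepsins inside the cell, and Stfa2, a stefin A gene, had a mean log2 ratio of 0.090 ± 0.098 (SD over 4 pairs). All its 4 pairs had the same sign, where 13.6% of all tested probes did, and its adjusted p in limma was 0.902. Cstb, the stefin B gene, had -0.0098 ± 0.085, and Cst7, the gene of cystatin F of immune cells, 0.033 ± 0.24.

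The cathepsin list holds the cysteine proteases that cystatins block, and also relatives that they do not, such as the aspartic proteases of Ctsd and Ctse. All 28 listed cathepsins, relatives and legumain were on the array and 16 were tested, with 8 mean ratios above 0, a median of 0.0003, a range of means between -0.12 and 0.22, and 0 with an unadjusted p under 0.05 in either direction. Over all tested probes, 48.9% were above 0 and 4.59% had an unadjusted p under 0.05 in limma. Ctso, a cathepsin of little known function, had the highest mean log2 ratio, 0.22 ± 0.30, and Ctsc, the protease that activates serine proteases of immune cells, had -0.11 ± 0.24 (SD over 4 pairs). Ctsb, the gene of the abundant lysosomal cathepsin B, had 0.45 in pair 2 and -0.29 in pair 3, with -0.070 in pair 1 and -0.16 in pair 4. It was thus highest and lowest in the same pairs as Ctsl and the median of the Leydig markers. Ctss, the gene of cathepsin S of antigen-presenting cells, had the widest spread of the list, -0.12 ± 0.59, with -0.93 in pair 3. Of 12 macrophage markers 10 were tested, with a median of -0.15 in pair 3 and mean levels of 7.58 to 7.94 in DEHP mice and 7.70 to 7.91 in vehicle mice, and their part in the Ctss ratios was not tested. Lgmn, the gene of legumain, an endopeptidase that some cystatins also block, had 0.041 ± 0.20.

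**Figure D4:**
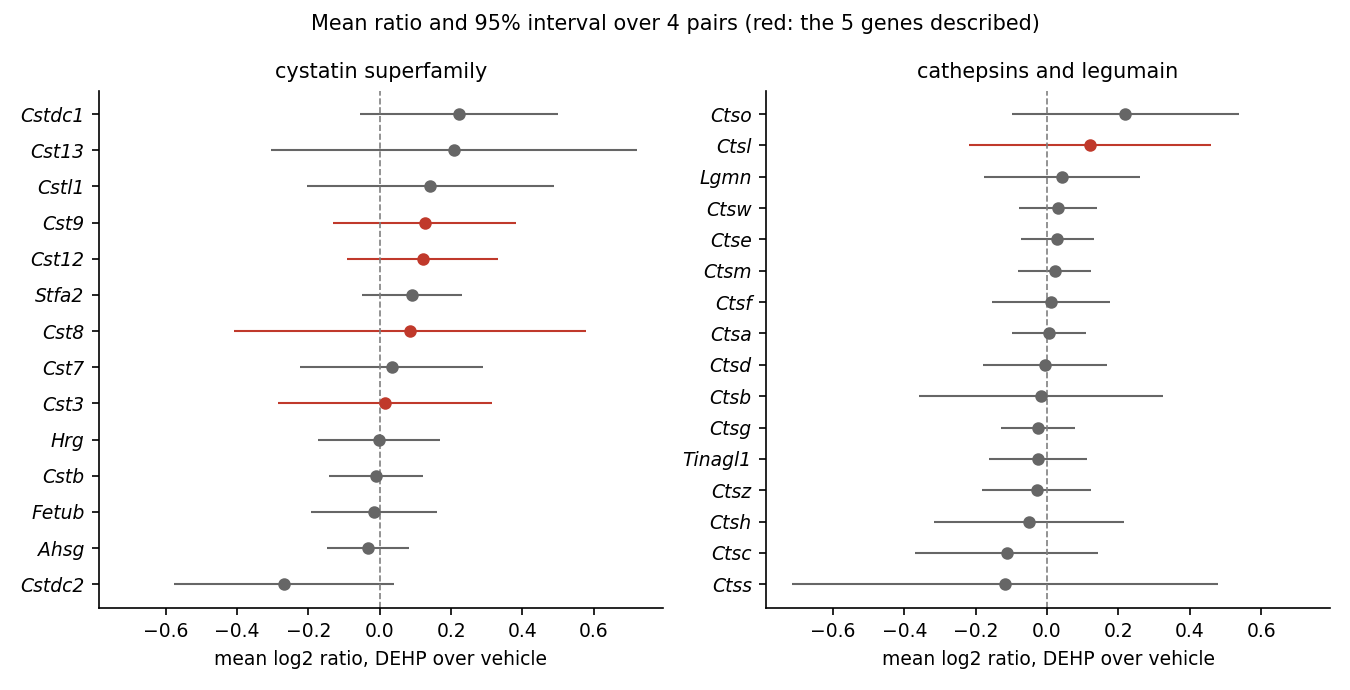
Mean log2 ratio of DEHP over vehicle with its 95% interval from limma over 4 pairs (horizontal axis) for the tested genes of the cystatin superfamily (left) and of the cathepsins and legumain (right), with the 5 genes described above in red. Every interval includes 0.

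No tested gene of the lysosome, which houses cathepsin L, had an adjusted p under 0.05 in limma, where 0% of all tested probes did. Of all tested probes, 4.59% had an unadjusted p under 0.05 in limma and 48.9% a mean ratio above 0. All 28 listed genes of lysosomal membrane and hydrolases were on the array and 25 were tested, with 7 mean ratios above 0, a median of -0.053 and 0 with an unadjusted p under 0.05 in either direction. The median was -0.091 without pair 2, -0.031 without pair 3, -0.029 without pair 4 and -0.010 with array weights. Npc2, a cholesterol carrier of the lysosome, had a mean log2 ratio of 0.20 ± 0.20. Lamp1, a lysosomal membrane protein, had -0.17 ± 0.17 (SD over 4 pairs) and was below 0 in all 4 pairs, as were 7.08% of all tested probes.

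Other secreted protease inhibitors were set beside the cystatins. Of 22 listed genes, 20 were on the array and 14 were tested, with 11 mean ratios above 0, a median of 0.063 and 0 with an unadjusted p under 0.05 in either direction. Over all tested probes, 48.9% were above 0 and 4.59% had an unadjusted p under 0.05 in limma. Slpi, an inhibitor of leukocyte elastase, had a mean log2 ratio of 0.96 ± 1.07, made of 1.97, 0.020, 1.81 and 0.053 in pairs 1 to 4. It was above 0 in all 4 pairs, as were 6.57% of all tested probes. Its probe was well above background in only 5 of 8 DEHP and 4 of 8 vehicle channels, and its adjusted p in limma was 0.902. Eppin, an inhibitor on the sperm surface, had 0.20 ± 0.31, and Wfdc15a, of the whey acidic protein family, had 0.14 ± 0.24 (SD over 4 pairs).

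The authors' deposited table of ratios held Cst3, Cst12 and Ctsl. In the authors' deposited table the mean log2 ratio was 0.021 for Cst3, 0.12 for Cst12 and 0.14 for Ctsl. Its pair values in the authors' deposited table, 0.35, 0.15, -0.15 and -0.26 for Cst3 in pairs 1 to 4, had the signs given above.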

How the data were processed

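The members and the gene lists were chosen with earlier results of these data known. Spot intensity (mean foreground and median background, both unsubtracted) was deposited per array as scanned, per the file headers, by version 9.5.1.1 of Agilent Feature Extraction. A log10 ratio (Cy5 to Cy3), which per the file headers the same software made after subtracting background and normalising the dyes, served as an alternative. A further table deposited by the authors holds log2 ratios of 16095 spots. Its rows were matched by spot order and its direction, DEHP over vehicle, was found from its correlation with the scanner ratios. The submitters' processing notes name limma. Its settings are not given in the sources used here.

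In limma 3.58.1 (R 4.3.3; Python 3.11.15 for summaries), the background was corrected by normexp (offset 50), which understates ratios of dim probes, and values were normalised by loess without control spots. Spots marked as outliers were left out, spots of a probe averaged and ratios turned to DEHP over vehicle by the dye labels. The 2 swapped arrays of a pair are technical repeats and were averaged, and an intercept was fitted to 4 pair means with moderated 2-sided tests at an adjusted p of 0.05. Pairs come from the array labels, and swapped arrays correlated by 0.544 to 0.717 across probes. Levels per mouse were scaled between arrays (Aquantile) and are compared within a probe only. Of 41174 probes, 22975 for 16969 genes passed the filter. Between 49.8% and 59.5% of spots per channel were well above background, and the number of arrays limits the precision. Current symbols were found through the accession (22951 probes), the symbol (6659) or a synonym (3109), and 8455 kept the file's name. The fit was tested on simulated data. Where a listed gene had several kept probes, the brightest stood for it. Named genes were the members, kept members of the family lists (at least the 3 with the smallest unadjusted p) and the 2 genes most like each member. For these last 2, genes with clone-like or accession names were left out. Some genes of the lists are not reported here. Alternatives covered background correction, normalisation, the filter, the block and dye terms, each pair left out and the authors' ratios.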

Additional observations from a re-analysis of the deposited data

Results flagged for a closer look

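The log2 level of Cst3 in DEHP mouse 4 was 11.53, against 12.10 to 12.13 in the other 3 DEHP mice. The gap made up a share of 0.963 of the range of the DEHP mice, above the 0.829 that Dixon's rule allows for 4 samples. Chance alone flags about 1 in 20 such groups. Without pair 4, which holds this mouse, the mean log2 ratio of DEHP over vehicle for Cst3 was 0.11.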

How the results depend on the processing

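Under up to 19 alternatives each, Cst12 and Cst9 had a mean log2 ratio above 0. The sign of Cst3 turned on the slide with DEHP in Cy3 alone (-0.0092), that of Cst8 without pair 3 (-0.10) and that of Ctsl without pair 2 (-0.026). Leaving out each pair in turn gave -0.10 to 0.11 for Cst3 (-0.10 without pair 1, -0.025 without pair 2), -0.10 to 0.26 for Cst8, 0.016 to 0.19 for Cst9, 0.034 to 0.17 for Cst12 and -0.026 to 0.21 for Ctsl, with 0 probes called each time. The list medians then ran between 0.016 and 0.11 for cystatins, -0.029 and 0.016 for cathepsins, -0.091 and -0.029 for lysosome genes and 0.037 and 0.074 for other secreted inhibitors. Median centring raised all 5 members by over 1.5 times, to 0.14 (Cst3), 0.28 (Cst8), 0.29 (Cst9), 0.25 (Cst12) and 0.28 (Ctsl), and array weights did so for Cst3 (0.089), Cst8 (0.20), Cst12 (0.21) and Ctsl (0.30).

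With the pair (replicate) block as a random term, limma called 0 probes (smallest adjusted p 0.473), as without the block. Added after the data were seen, the same block with a dye term called 0 (smallest adjusted p 0.478). With a fixed pair block and a dye term, limma called 10268 of 22975 probes and 4 of 5 members, with adjusted p of 0.0157 for Cst8, 8.68e-04 for Cst9, 7.61e-04 for Cst12 and 0.00415 for Ctsl at unchanged ratios of 0.085, 0.13, 0.12 and 0.12. That fit sets the ratio against the disagreement of swapped arrays of the same RNA and leaves out the spread between mice. The other alternatives called 0 probes. The cathepsin median was 0.072 with the scanner's processed ratio, and the median of other secreted inhibitors was 0.15 with the authors' ratios, over 10 genes. The causes of the moved medians were not tested.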
